A study of Mus musculus with 6 samples.

Results

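T-box genes encode transcription factors that share a DNA-binding domain, the T-box, named after the mouse gene T (brachyury). The 9 genes described here, T, Eomes, Tbx1, Tbx2, Tbx3, Tbx4, Tbx5, Tbx6 and Tbx20, were chosen by symbol from the 55471 gene identifiers of the count tables, and 8 further mouse T-box genes were set beside them. The RNA came from epiblast stem cells of the mouse, pluripotent cells that resemble the epiblast just before gastrulation, after 2 days as embryoid bodies (floating aggregates of differentiating cells) in serum. The Mixl1 induced group (3 libraries) came from a line in which Mixl1, a homeobox gene of the primitive streak, can be switched on, and its embryoid bodies were given 1 µg/mL of doxycycline for the final 24 h. The Mixl1 KO group (3 libraries) came from cells labelled as a Mixl1 knockout, and whether these cells were given doxycycline is not said in the labels. Before aggregation both kinds of cells had grown on a feeder layer of irradiated fibroblasts from mouse embryos, with bFGF and Activin A in the medium. The labels name neither the clones, the parental lines nor the promoter behind the inducible gene, so Mixl1, the line and the drug cannot be told apart in this comparison.

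During gastrulation several T-box genes act in the primitive streak, where epiblast cells turn into mesoderm and endoderm. NODAL signalling is known to switch on Eomes there, which is needed for definitive endoderm and for the earliest cardiac mesoderm, and WNT signalling is known to switch on T, which keeps posterior mesoderm and notochord forming. Tbx6 then directs progenitors to paraxial mesoderm and away from a neural fate. Other members act later: Tbx20 and Tbx5 in the heart, Tbx1 in pharyngeal arches, Tbx4 in hindlimb, lung and allantois, and Tbx2 and Tbx3, which mainly repress their targets, in heart, limb and many other places.

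The libraries held 17490426 to 21026423 reads on genes. Mixl1 itself had 8860, 7720 and 7861 reads in the Mixl1 induced libraries, against 817, 668 and 812 reads in the Mixl1 KO libraries. The labels do not say which part of the gene was altered, and a count over the whole gene checks neither the knockout nor the induction of a full transcript. Nothing in the labels tells whether replicates were separate cultures, and the spread that p-values are measured against may be that of technical repeats.

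To show where these genes start, the 250 bases upstream of the RefSeq transcript start (GRCm38.p6) are printed for 4 members. They are T, with the highest level, Eomes, whose level was alike in both groups, Tbx6, a gene downstream of T in paraxial mesoderm, and Tbx20, with the largest rise. The windows are chr17:8434173-8434422 (plus strand) for T, chr9:118477939-118478188 (plus strand) for Eomes, chr7:126781233-126781482 (plus strand) for Tbx6 and chr9:24774304-24774553 (minus strand) for Tbx20, each read 5′ to 3′ on the strand of its gene. Capitals mark every match, on either strand, to 4 motifs: AGGTGTG (the core that T-box proteins bind), TAATNNNATTA and TAATNNATTA (palindromes of the kind bound by pairs of paired-class homeodomains, the class of MIXL1) and TCAAAG (the core bound by the WNT effectors TCF and LEF, added after the T window had been seen).
T: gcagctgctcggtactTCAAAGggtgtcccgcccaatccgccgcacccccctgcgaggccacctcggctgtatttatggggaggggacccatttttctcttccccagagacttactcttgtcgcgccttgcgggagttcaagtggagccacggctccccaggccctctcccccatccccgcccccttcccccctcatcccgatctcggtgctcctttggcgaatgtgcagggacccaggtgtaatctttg
Eomes: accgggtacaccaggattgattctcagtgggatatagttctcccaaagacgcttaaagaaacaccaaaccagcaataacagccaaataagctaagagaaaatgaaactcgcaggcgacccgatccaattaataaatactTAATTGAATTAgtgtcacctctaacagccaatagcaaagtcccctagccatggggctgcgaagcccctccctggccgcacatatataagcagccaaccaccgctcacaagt
Tbx6: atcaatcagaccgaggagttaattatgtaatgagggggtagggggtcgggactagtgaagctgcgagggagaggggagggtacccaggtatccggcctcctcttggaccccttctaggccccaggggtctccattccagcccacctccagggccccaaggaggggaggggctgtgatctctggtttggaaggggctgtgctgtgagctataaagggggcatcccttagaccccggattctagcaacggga
Tbx20: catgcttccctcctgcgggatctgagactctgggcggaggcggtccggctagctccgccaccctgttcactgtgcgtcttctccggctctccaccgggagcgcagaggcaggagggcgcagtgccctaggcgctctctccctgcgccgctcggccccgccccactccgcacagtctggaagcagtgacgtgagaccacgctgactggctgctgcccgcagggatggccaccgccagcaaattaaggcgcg
The T window held TCAAAG with its first base at position -234 from the start, and 13.8% of the 32851 mouse windows of this length in the table held that core. The Eomes window held TAATTGAATTA with its first base at -111, a match to the palindrome with a spacer of 3 that 0.463% of all windows contained. The Tbx6 and Tbx20 windows held none of the 4 motifs. The T-box core AGGTGTG stood in none of the 4 windows, against 5.1% of all windows, and the palindrome with a spacer of 2 in none of them, against 0.384%. A match is a stretch of letters and was not tested for binding. The base composition differed between the windows, with 46.4% G and C in Eomes, 62.8% in T, 59.6% in Tbx6 and 68.8% in Tbx20, against a median of 52.4% over all windows.

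Of the 9 members, 8 had enough reads to be tested and 6 of these passed an adjusted p of 0.05 (edgeR quasi-likelihood test, adjusted over 15091 genes). Tbx2, Tbx3 and Tbx20 were higher in the Mixl1 induced libraries, and T, Tbx4 and Tbx6 were lower. Over all tested genes 62.6% passed, 31% higher and 31.6% lower, so 6 of 8 is a share near the background. A change of at least 8-fold past the threshold was found for 3 of the 8, T, Tbx2 and Tbx20, against 2.7% of all tested genes. The median size of the members' changes was 1.32 on the log2 scale, against 0.32 over all tested genes. The members were chosen with earlier results of these data known, so these comparisons describe the members and are no test of the family. The median with its sign was -0.18 for the members and 0.00 for all tested genes. In 6 of the 8 the groups did not overlap, as was the case for 67.1% of all tested genes. In bulk RNA, fewer cells of a type and less RNA per cell cannot be told apart, which holds for every difference below.

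**Figure D1:**
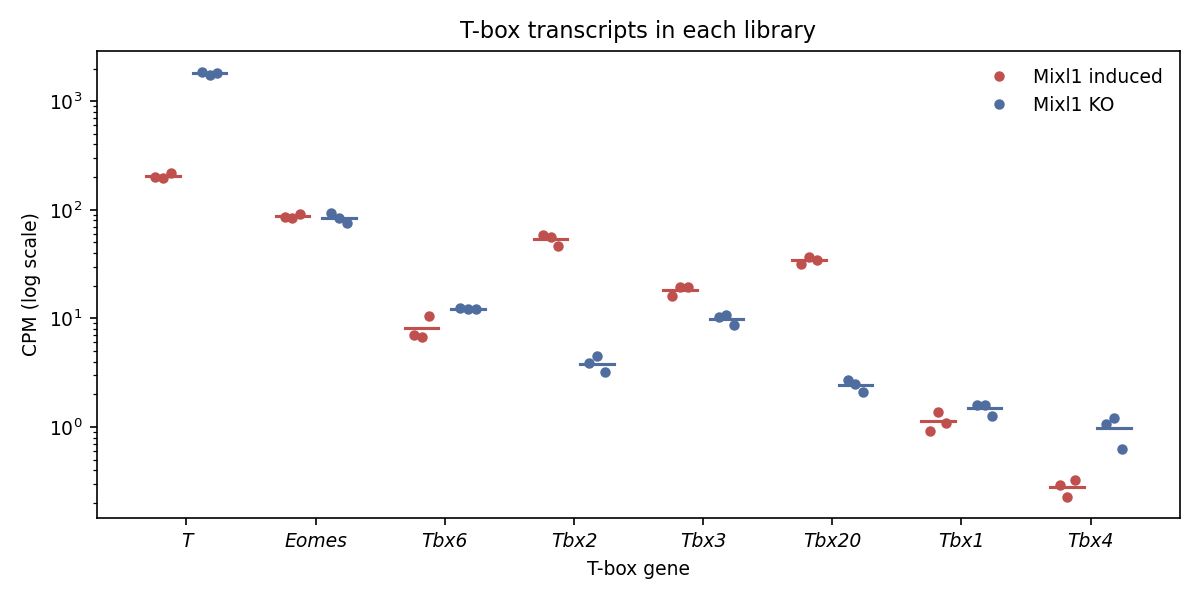
Expression of the 8 tested members in each library, in counts per 1000000 scaled reads (CPM) on a log axis; points are libraries, lines are group means, red is Mixl1 induced and blue is Mixl1 KO. T averaged 204.8 CPM in the Mixl1 induced libraries and 1807 CPM in the Mixl1 KO libraries, the groups of Eomes and Tbx1 overlapped, and the other 5 genes were separated, with Tbx2, Tbx3 and Tbx20 higher in the Mixl1 induced libraries.

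T, the gene of brachyury (chromosome 17, 8434423 to 8442496 in mm10, plus strand, ENSMUSG00000062327.10), had the largest number of reads of the family. It had 200.8, 195.8 and 217.9 CPM in the Mixl1 induced libraries, against 1859, 1758 and 1806 CPM in the Mixl1 KO libraries (CPM, counts per 1000000 TMM-scaled reads on tested genes). Every Mixl1 induced library thus lay far below every Mixl1 KO library, and the spread within each group was small. The log2 fold change, Mixl1 induced over Mixl1 KO, was -3.14 (SE 0.052; 95% interval -3.25 to -3.03; edgeR, adjusted p = 2.69e-22). Per kb of exon, T ranked 475th of 15086 tested genes in the Mixl1 induced libraries and 25th in the Mixl1 KO libraries. The lower level thus still placed T among the more abundant transcripts of the Mixl1 induced cells. On chromosome 17, the 753 tested genes had a median log2 fold change of -0.13. The part of that shift in the value of T was not tested.

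Eomes, also called Tbr2, is the T-box gene of endoderm and cardiac mesoderm precursors (chromosome 9, 118478212 to 118486132, plus strand). It had 86.3, 84.5 and 91.4 CPM in the Mixl1 induced libraries, against 92.7, 84.7 and 75.1 CPM in the Mixl1 KO libraries. The groups overlapped, and Mixl1 KO replicate 1 was the highest and Mixl1 KO replicate 3 the lowest of all 6 libraries. The log2 fold change was 0.05 (SE 0.064; edgeR, adjusted p = 0.487). Its 95% interval, which rests on the spread among these libraries, was -0.08 to 0.19. Eomes overlaps the antisense transcript gene Gm33460 at its 3′ end. Counts that ignore the strand held 89.5% as many Eomes reads as the strand-specific counts, because reads in the overlap are then left out, and gave a log2 fold change of 0.06. Gm33460 had 13, 19 and 21 reads in the Mixl1 induced libraries, against 11, 8 and 6 reads in the Mixl1 KO libraries (log2 fold change 1.11, SE 0.37, edgeR adjusted p = 0.0128).

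Tbx6, the paraxial mesoderm gene (chromosome 7, 126781483 to 126785560, plus strand), fell by 0.60 on the log2 scale. It had 7.09, 6.69 and 10.6 CPM in the Mixl1 induced libraries, against 12.4, 12.2 and 12.3 CPM in the Mixl1 KO libraries. The groups did not overlap, but Mixl1 induced replicate 3 stood closer to the Mixl1 KO libraries than to the other Mixl1 induced libraries. The standard error was 0.14 (edgeR, adjusted p = 0.000856). Without Mixl1 induced replicate 3 the log2 fold change was -0.84, and without replicate 2 of the same group it was -0.48; the call held in both cases. The neighbouring genes Ypel3 and Gdpd3, on the same strand upstream of Tbx6, were lower too, with log2 fold changes of -0.68 and -0.73. Over all tested genes 31.6% were called lower. Ppp4c lies 306 bases beyond the end of Tbx6 on the other strand. Its log2 fold change of 0.02 did not pass (edgeR, adjusted p = 0.672). Aldoa, 9674 bases beyond the end of Tbx6, had a log2 fold change of 0.07 and did not pass either (edgeR, adjusted p = 0.206).

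Tbx2 and Tbx3, a closely related pair that encodes mostly repressing factors, were both higher. Tbx2 (chromosome 11, 85832551 to 85841948, plus strand) had 58.1, 56.3 and 46.3 CPM in the Mixl1 induced libraries, against 3.85, 4.46 and 3.21 CPM in the Mixl1 KO libraries. No Mixl1 induced library came near the Mixl1 KO range. The log2 fold change was 3.80 (SE 0.11; edgeR, adjusted p = 3.87e-16), a ratio of 14.0 in scaled reads. Tbx3 (chromosome 5, 119670669 to 119684724, plus strand), which is also part of the gene network of naive embryonic stem cells, had 16.1, 19.6 and 19.4 CPM in the Mixl1 induced libraries, against 10.3, 10.7 and 8.63 CPM in the Mixl1 KO libraries. The groups of Tbx3 did not overlap either, but the gap was smaller, with a log2 fold change of 0.89 (SE 0.11; edgeR, adjusted p = 2.14e-07).

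Tbx4 and Tbx5 lie next to Tbx2 and Tbx3 in the genome, on the same strand and 44.5 kb and 147.9 kb away, and neither was called higher. Tbx4, a hindlimb and allantois gene, had 6, 4 and 6 reads in the Mixl1 induced libraries, against 22, 22 and 12 reads in the Mixl1 KO libraries, which is 0.282 ± 0.050 CPM against 0.972 ± 0.303 CPM (SD, n = 3 each). It fell by 1.76 on the log2 scale (SE 0.40; edgeR, adjusted p = 0.000608). With so few reads its interval was wide, from -2.59 to -0.93. Tbx5, the gene of forelimb and heart that is altered in Holt-Oram syndrome, had 0, 1 and 1 reads in the Mixl1 induced libraries, against 0, 0 and 1 reads in the Mixl1 KO libraries. Both sums are at or under the 3 reads taken as the limit that a count of 0 allows, so no fold change is given and a difference was not detectable at this depth. Nor did all close neighbours share the direction of Tbx2: Bcas3, which ends 6493 bases upstream of it, fell by 0.51 on the log2 scale (SE 0.073; edgeR, adjusted p = 2.7e-06). The noncoding gene 2610027K06Rik starts 328 bases upstream of Tbx2 on the other strand and had 24, 14 and 8 reads in the Mixl1 induced libraries, against 0, 2 and 2 reads in the Mixl1 KO libraries. It was too low to be tested.

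Tbx20, a gene of cardiac progenitors (chromosome 9, 24718138 to 24774303, minus strand), had the largest rise among the members. It had 31.9, 37.1 and 34.4 CPM in the Mixl1 induced libraries, against 2.68, 2.48 and 2.11 CPM in the Mixl1 KO libraries. The groups were far apart, with a log2 fold change of 3.82 (SE 0.11; edgeR, adjusted p = 9.42e-18). The estimates of Tbx20 and Tbx2 differed by less than either standard error. Tbx1, a gene of pharyngeal mesoderm and endoderm that is lost in DiGeorge syndrome, had 0.916, 1.37 and 1.09 CPM in the Mixl1 induced libraries, against 1.61, 1.60 and 1.26 CPM in the Mixl1 KO libraries. Its groups overlapped and it did not pass (log2 fold change -0.42, 95% interval -0.96 to 0.13; edgeR, adjusted p = 0.178).

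**Figure D2:**
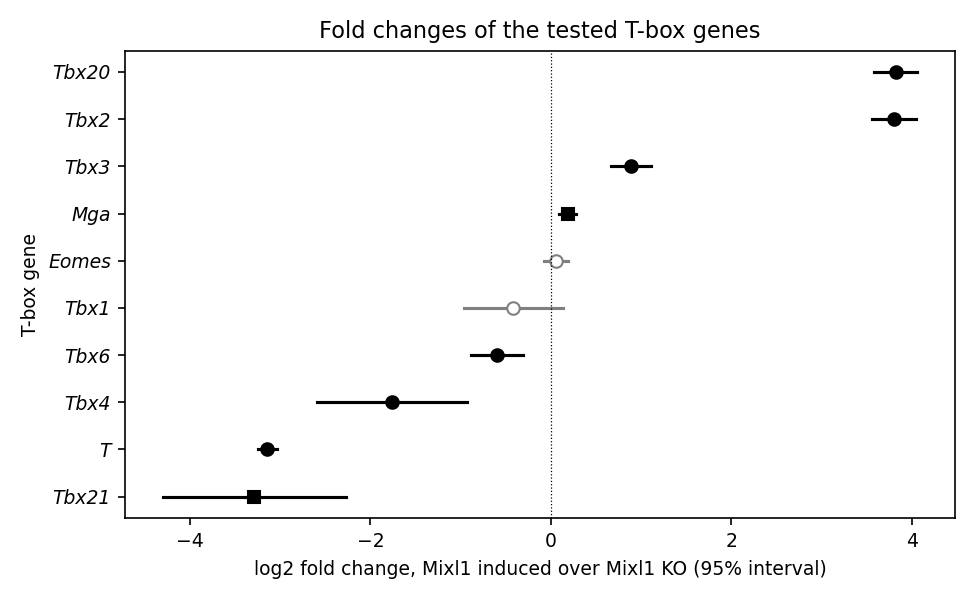
Log2 fold change, Mixl1 induced over Mixl1 KO, of the 10 tested T-box genes with 95% intervals from edgeR; circles are the members, squares are the other T-box genes, and open grey circles did not pass an adjusted p of 0.05. Tbx20 and Tbx2 stand near 3.8, T near -3.1, and the intervals of Eomes and Tbx1 include 0.

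The authors' deposited table gives similar values for these genes. For Eomes and Tbx6 its values lie closer to those from counts without strand (0.0589 and -0.582) than to the main ones (0.0533 and -0.600). Its log2 fold changes are -3.14 for T, 3.81 for Tbx2, 3.83 for Tbx20, 0.89 for Tbx3, -1.78 for Tbx4, -0.58 for Tbx6, 0.06 for Eomes and -0.38 for Tbx1. The reads of the members came almost wholly from the coding strand. The share of reads antisense to the gene was 0.044% for T (95% exact binomial interval 0.0328% to 0.0578%) and 0.437% for Eomes (0.316% to 0.588%), against 3.71% to 3.80% over all genes in each library. These intervals cover counting error only.

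The other 8 T-box genes were mostly rare. Mga, whose protein joins a T-box to a MAX-binding domain and takes part in a repressive Polycomb-type complex, was the abundant exception. It had 161.1 ± 4.4 CPM in the Mixl1 induced libraries and 141.4 ± 4.0 CPM in the Mixl1 KO libraries (SD, n = 3 each), a log2 fold change of 0.19 (SE 0.046; edgeR, adjusted p = 0.00108). Tbx21, which encodes the lymphocyte factor T-bet, had 2, 2 and 1 reads in the Mixl1 induced libraries, against 20, 15 and 18 reads in the Mixl1 KO libraries (log2 fold change -3.28, SE 0.49; edgeR, adjusted p = 4.4e-06). Macrophage genes were lower in the same libraries: all 10 that were listed fell, against 31.6% of all tested genes. The summed level of the 10 was 47.6 to 59.0 CPM in the Mixl1 induced libraries, against 320.7 to 461.5 CPM in the Mixl1 KO libraries, with none of the 10 at 0 reads. Markers of lymphocytes were not listed, and the part of blood cells in the value of Tbx21 was not tested.

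The remaining 6 T-box genes were too low to be tested. Tbx15, a gene of mesenchyme and skin, had 7 reads over the Mixl1 induced libraries, against 34 over the Mixl1 KO libraries. The authors' deposited table gives Tbx15 a log2 fold change of -2.24 (Wald test, adjusted p = 0.0178). Tbx18, a gene of epicardium and somites, had 32 reads over the Mixl1 induced libraries, against 23 over the Mixl1 KO libraries. Tbr1, a gene of cortical neurons, had 19 reads over the Mixl1 induced libraries, against 14 over the Mixl1 KO libraries. Tbx10 had 1 read over the Mixl1 induced libraries, against 12 over the Mixl1 KO libraries, a Mixl1 KO to Mixl1 induced ratio of 11.8 with a 95% counting interval of 1.74 to 503.3. For Tbx10 the authors' deposited table gives a log2 fold change of -3.44 that did not pass (Wald test, adjusted p = 0.0658). Tbx22, a gene of palate formation, had 5 reads in the Mixl1 induced libraries and none in the Mixl1 KO libraries. With the Mixl1 KO sum set to 3 reads the ratio was 1.70. That value leaves out the counting error of the 5 reads, so no difference is read from it. Tbx19, the pituitary factor gene, had 1 read over the Mixl1 induced libraries and 0 over the Mixl1 KO libraries.

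Levels of different T-box genes can be set side by side only per length, here as reads per kb of exon per 1000000 scaled reads. Summed over the 17 T-box genes, this level was 145.6 ± 5.1 in the Mixl1 induced libraries and 821.2 ± 23.0 in the Mixl1 KO libraries (SD, n = 3 each). T alone made up 60.7% ± 1.3 of the sum in the Mixl1 induced libraries and 95.1% ± 0.25 in the Mixl1 KO libraries. Without T, the summed level ran the other way, 57.1 ± 0.13 in the Mixl1 induced libraries and 40.5 ± 2.4 in the Mixl1 KO libraries. Eomes held 14.4% ± 0.079 of the family sum in the Mixl1 induced libraries and 2.46% ± 0.23 in the Mixl1 KO libraries, and Tbx2 held 10.2% ± 1.5 in the Mixl1 induced libraries and 0.129% ± 0.023 in the Mixl1 KO libraries. The share of Eomes thus moved with the sum although its own level did not pass the test. With 3 libraries in each group, an exact permutation test cannot give a two-sided p below 0.1, so no p is given for these sums and shares.

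The order of the genes by level per kb also differed between the groups. In the Mixl1 induced libraries it ran T, Eomes, Tbx2, Mga, Tbx6, Tbx20, Tbx3, Tbx1, and the only neighbours among these 8 with overlapping ranges were Tbx20 (2.87 ± 0.215) and Tbx3 (2.77 ± 0.296). In the Mixl1 KO libraries it ran T, Eomes, Mga, Tbx6, Tbx3, Tbx2, Tbx1, and the first 6 of these were each separated from the next, while the range of Tbx1 overlapped that of Tbx21 after it. There Tbx20, at 0.202 ± 0.024, stood further down, with a range overlapping those of Tbx4 above it and Tbx15 below it. Tbx2 stood at 14.8 ± 1.8 per kb in the Mixl1 induced libraries and at 1.06 ± 0.17 in the Mixl1 KO libraries. These ranges are per kb of all exons. With the longest transcript as the length, the orders by mean were the same but some overlaps changed. Tbx6 then overlapped Tbx20 in the Mixl1 induced libraries, and Tbx1 did not overlap Tbx21 in the Mixl1 KO libraries.

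**Figure D3:**
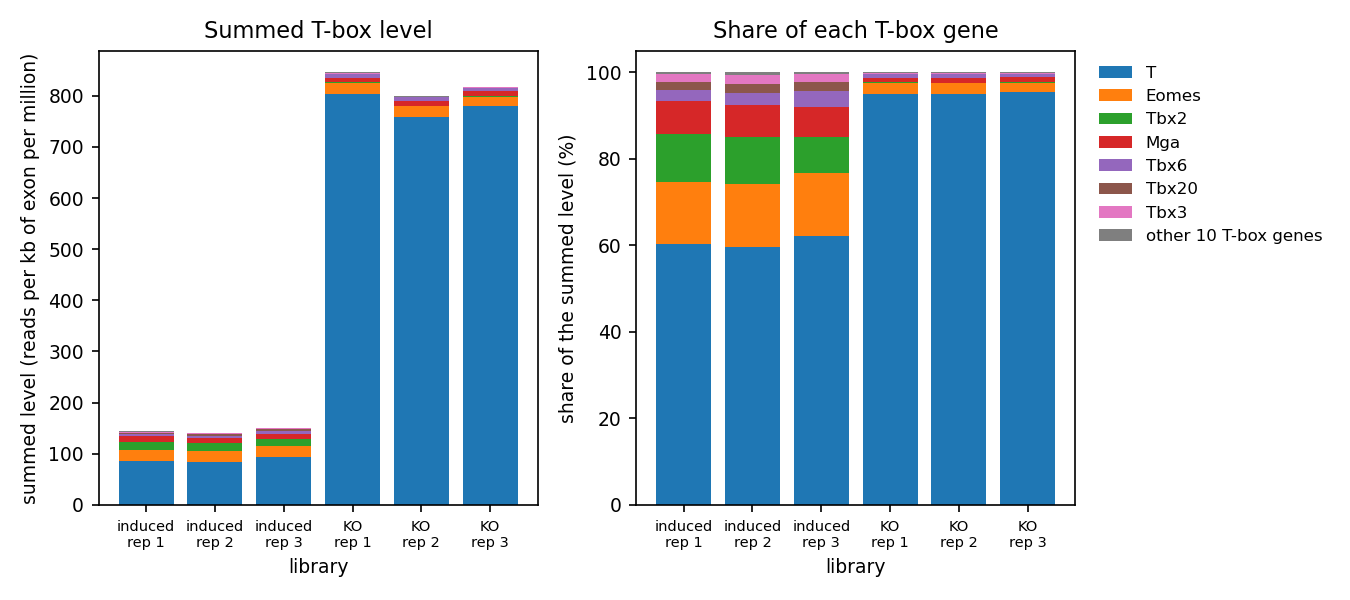
Summed level of the 17 T-box genes (left, reads per kb of exon per 1000000 scaled reads) and the share of each gene in it (right, %), one bar per library. T fills about 60% of each Mixl1 induced bar and about 95% of each Mixl1 KO bar, and Eomes, Tbx2 and Mga make up most of the rest in the Mixl1 induced libraries.

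Genes that signal to T and Eomes went both ways, with more of them lower. Of 22 tested, 6 rose and 13 fell, with a median log2 fold change of -0.40. The background for this and every other list is 31% of all tested genes called higher and 31.6% called lower. Wnt8a, a posterior WNT ligand gene, fell to 25.7 CPM in the Mixl1 induced libraries, against 288.1 CPM in the Mixl1 KO libraries (log2 fold change -3.49), and Fgf8 had a log2 fold change of -1.16. Dkk1, which encodes a secreted WNT inhibitor, rose by 5.45 on the log2 scale. The others that rose were Tdgf1 (1.58), the NODAL co-receptor gene, Fgf5 (1.61), Lefty1 (0.97), which encodes a NODAL inhibitor, Foxh1 (0.46), a DNA-binding partner of SMAD2, and Tcf7l1 (0.35), a repressing TCF. Nodal itself, chosen after its value was seen, had a log2 fold change of -0.38 (edgeR, adjusted p = 3.1e-05).

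Reported targets of brachyury were mostly lower, though several were not. Of 12 listed genes 11 were tested, 6 fell and 3 rose, with a median log2 fold change of -0.37. Among all tested genes 31.6% were called lower and 31% higher. The list shares Fgf8 and Wnt3a with the upstream signals, and Msgn1 and Dll1 with the TBX6 targets below. Fgf8, a streak growth factor gene, and Foxj1, a regulator of motile cilia in the node, had log2 fold changes of -1.16 and -2.47. Cyp26a1, which encodes a retinoic acid-degrading enzyme, was higher, at 67.0 CPM in the Mixl1 induced libraries against 13.8 CPM in the Mixl1 KO libraries. Foxa2 (0.70) was higher as well. Snai1 (0.31) passed narrowly (edgeR, adjusted p = 0.0217) with groups that overlapped, at 19.7, 24.7 and 28.6 CPM in the Mixl1 induced libraries against 19.3, 18.5 and 20.8 CPM in the Mixl1 KO libraries. The count of brachyury targets that rose was 2 when Mixl1 induced replicate 2 or 3, or Mixl1 KO replicate 1 or 2, was left out, and 4 without Mixl1 KO replicate 3. Noto was too low to be tested. Reported targets of TBX6 also went both ways: of 9 listed genes 8 were tested, 5 rose and 2 fell, with a median of 0.75. Sox2, which TBX6 is known to repress in paraxial mesoderm precursors, had a log2 fold change of 1.86, and Lfng, a NOTCH modulator of the somite clock, of 1.93. The clock gene Hes7 was among those that fell, with 0.375 CPM in the Mixl1 induced libraries against 7.82 CPM in the Mixl1 KO libraries, as was the NOTCH ligand gene Dll1 (-0.37).

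Reported EOMES targets were mostly higher while Eomes itself did not pass. All 12 were tested, 9 rose and 1 fell, with a median log2 fold change of 2.35. Among all tested genes 31% were called higher and 31.6% lower. Fgf8, Foxa2 and Snai1 are on the list of brachyury targets as well. Mixl1 is on this list and was the gene altered in the lines. Cer1, a gene of anterior endoderm, had 51.1 CPM in the Mixl1 induced libraries against 0.276 CPM in the Mixl1 KO libraries, and the organizer gene Gsc had 25.2 CPM in the Mixl1 induced libraries against 1.16 CPM in the Mixl1 KO libraries. Fgf8 was the member that fell, and Sox17 and Hhex did not pass. Whether any of these listed genes is bound by a T-box factor in these cells was not measured.

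T-box corepressors and cardiac partners were measured too. Of 10 listed corepressor genes 8 were tested, 3 rose and 4 fell, with a median of -0.18; without replicate 2 of either group, 2 fell. Ripply1 and Ripply3, whose proteins bind T-box factors and recruit Groucho-type corepressors, had log2 fold changes of 1.66 and 1.28. Among the Groucho genes, Tle3 rose to 237.8 CPM in the Mixl1 induced libraries, against 124.9 CPM in the Mixl1 KO libraries, and Tle1 fell to 45.4 CPM in the Mixl1 induced libraries, against 86.3 CPM in the Mixl1 KO libraries. The list of cardiac partners of TBX5 and TBX20 held 15 genes, among them genes of signals and of heart muscle. Of these 8 were tested, 4 rose and 0 fell, with a median of 0.46. Among all tested genes 31% were called higher and 31.6% lower. Without Mixl1 KO replicate 3, 1 of the list fell. Gata6 (5.26), Gata4 (4.66) and Bmp2 (0.84) led that list, and the heart muscle gene Nppa had 0 reads in all libraries.

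**Figure D4:**
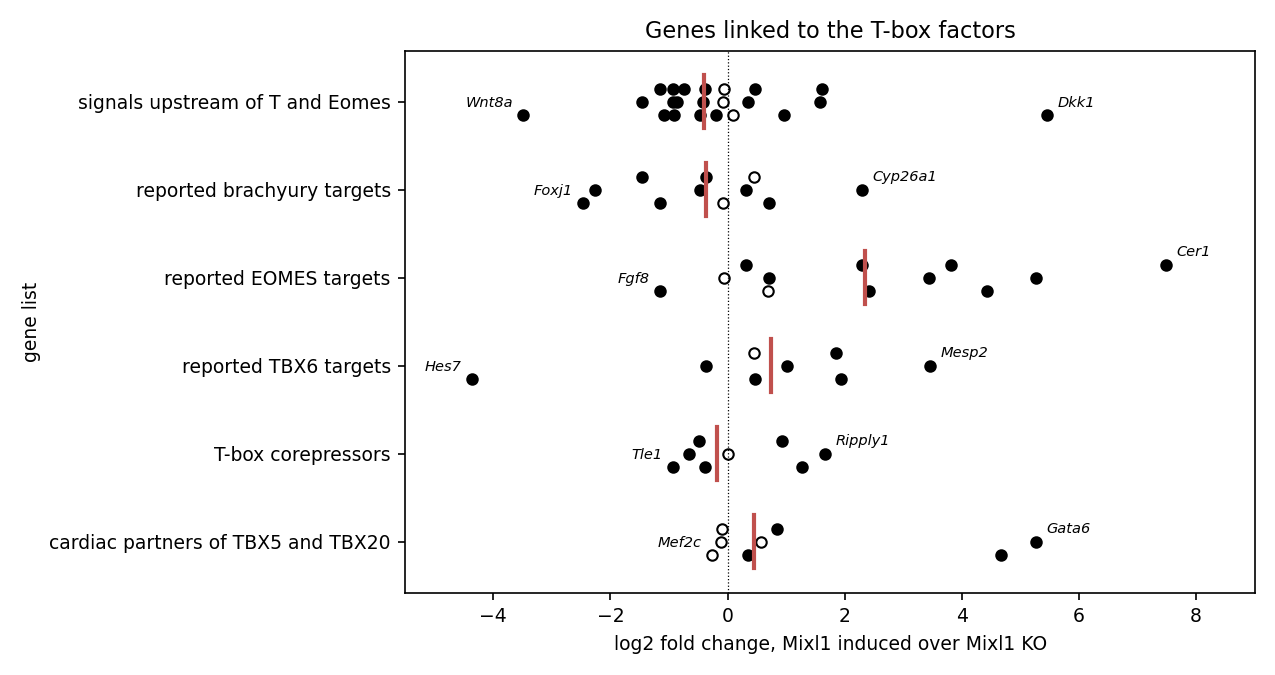
Log2 fold change, Mixl1 induced over Mixl1 KO, of the tested genes in 6 lists linked to the T-box factors; filled points passed an adjusted p of 0.05 (edgeR), open points did not, and red bars are list medians. The EOMES list has the highest median, 2.35, and the lists of upstream signals and brachyury targets have medians of -0.40 and -0.37.

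The markers of the labelled cells and of others they could hold were set beside these values. Epiblast genes were present in every library, with summed levels of 1564 to 1608 CPM in the Mixl1 induced libraries against 2316 to 2456 CPM in the Mixl1 KO libraries, 5 of 10 being higher and 5 lower. Markers of feeder fibroblasts, on which the cells had been grown, summed to 462.4 to 632.8 CPM in the Mixl1 induced libraries against 834.7 to 1012 CPM in the Mixl1 KO libraries, with 3 of 10 higher and 6 lower. Among the 6, Acta2 differed most in CPM, with 43.3 CPM in the Mixl1 induced libraries against 246.3 CPM in the Mixl1 KO libraries. The 3 that were higher were Col1a2 (201.9 against 95.1 CPM), Thy1 and Lum, so the markers did not move together. Tbx4 and Tbx15 are known in such mesenchymal cells, and the part of the fibroblasts in their values was not tested. Trophoblast stem cells also express Eomes: of 9 markers 7 were tested, 3 rose and 3 fell, they summed to 110.8 to 119.2 CPM in the Mixl1 induced libraries against 324.9 to 405.6 CPM in the Mixl1 KO libraries, and Elf5 had 0, 1 and 5 reads in the Mixl1 induced libraries against 0 reads in each Mixl1 KO library. Cdx2, which is also on the list of streak genes, and Tfap2c made up most of the Mixl1 KO sum: Cdx2 had 13.2 CPM in the Mixl1 induced libraries against 180.3 CPM in the Mixl1 KO libraries, and Tfap2c had 39.5 CPM in the Mixl1 induced libraries against 145.4 CPM in the Mixl1 KO libraries. Gata3 went the other way, with 40.7 CPM in the Mixl1 induced libraries against 2.87 CPM in the Mixl1 KO libraries. Of 12 primitive streak and nascent mesoderm genes, 6 rose and 5 fell, with sums of 787.3 to 812.5 CPM in the Mixl1 induced libraries against 759.7 to 873.9 CPM in the Mixl1 KO libraries. Mixl1, the gene altered in the lines, is 1 of the 6 and made up much of the Mixl1 induced sum. It had 432.5 CPM in the Mixl1 induced libraries against 39.8 CPM in the Mixl1 KO libraries, so these sums do not compare the other streak genes. Of 12 lateral plate and cardiac mesoderm genes 9 were tested, 3 rose and 3 fell, with sums of 122.5 to 132.4 CPM in the Mixl1 induced libraries against 163.9 to 179.2 CPM in the Mixl1 KO libraries. Actc1 and Bmp4 made up most of both sums: Actc1 had 76.4 CPM in the Mixl1 induced libraries against 118.2 CPM in the Mixl1 KO libraries, and Bmp4 17.6 against 37.6 CPM. Gata4 (12.1 against 0.474 CPM), Foxf1 (1.92 against 0.136 CPM) and Hand1 (12.8 against 10.1 CPM) were the 3 that rose. Of 8 visceral endoderm markers, 4 were tested and 3 fell, with Ttr at 0 reads and Apoe as nearly the whole of a sum of 208.4 to 258.8 CPM in the Mixl1 induced libraries against 547.3 to 599.2 CPM in the Mixl1 KO libraries.

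The protein-coding genes most like each member were found by the distance between their mean-centred log2 CPM profiles over the 6 libraries, where 0 would be the same profile. Kdr, which encodes a VEGF receptor of early blood and vessel progenitors, was nearest to both Tbx2 (distance 0.217) and Tbx20 (0.229), and Plekha6 was among the nearest 3 of both. Kdr had 37.3 CPM in the Mixl1 induced libraries and 2.71 CPM in the Mixl1 KO libraries. Nearest to T was the potassium channel gene Kcnc1 (0.202), with 4.73 CPM in the Mixl1 induced libraries and 39.9 CPM in the Mixl1 KO libraries. Nearest to Tbx3 was Msx2 (0.192), a homeobox gene that responds to BMP, with 60.6 CPM in the Mixl1 induced libraries and 30.9 CPM in the Mixl1 KO libraries. With 2 groups, such a distance mostly reflects the size of the group difference.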

How the data were processed

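RNA was measured in 6 libraries, 3 Mixl1 induced and 3 Mixl1 KO, grouped by sample title. The authors deposited raw read counts per gene; bcl2fastq, STAR, DESeq2 and mm10 are named per the submitters' processing notes, with no version, and the annotation release is not given in the labels or headers used here. The kit was TruSeq Stranded mRNA, per the labels' protocols. Of the 3 count columns the last, for second-strand reads, was taken; the column for the other strand held 3.71% to 3.80% of stranded gene reads. Rows that name no gene took 15.1% to 17.6% of reads and were left out. Reads that fit several places were not counted. The authors' deposited table holds, per the file headers, a mean normalised count (signal), log2 fold change and its error, a Wald score, p-values and a −log10 of the adjusted p.

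Identifiers were matched without version to GENCODE M21 (GRCm38, the mm10 assembly), 55230 of 55471. Genes passing filterByExpr were tested with edgeR 4.0.16 (R 4.3.3; TMM scaling, robust quasi-likelihood, group as the only term, two-sided, Benjamini-Hochberg). The standard error is the log2 fold change over the square root of F. The code was tested on simulated data. Replicates differed by more than counting noise (chi-square over its degrees of freedom 2.23 to 5.13; across groups 78.8 to 91.0).

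Alternatives were other scalings, filters, counts without strand, a replicate block, DESeq2 1.42.0 and limma-voom (limma 3.58.1) tests, leaving out each library, and another gene length. Levels per length use the union of a gene's exons. The members and lists were chosen with earlier results of these data known. Beyond the members and other T-box genes, each list gave up to 3 genes past the threshold with the smallest adjusted p, plus those against its majority; likeness named the nearest 3 protein-coding genes with a mean of at least 5 CPM and no predicted-model symbol. Aes was taken as the older name of Tle5. Promoter sequences are RefSeq's (GRCm38.p6); 6 of the 9 members matched.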

Additional observations from a re-analysis of the deposited data

How the results depend on the processing

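In all 14 alternatives that were fitted 3 members were higher, and in 13 of them 3 were lower, as in the main test. With the filter of at least 1 CPM, which left Tbx4 untested, 2 were lower. Over these alternatives, which include leaving out each library in turn, the log2 fold changes ranged from -3.19 to -3.10 for T, from 3.69 to 3.92 for Tbx2, from 3.73 to 3.90 for Tbx20, from 0.80 to 0.98 for Tbx3, from -1.99 to -1.58 for Tbx4 and from -0.84 to -0.48 for Tbx6. The estimate of Eomes, which did not pass, changed sign without Mixl1 KO replicate 3 (-0.024, edgeR adjusted p = 0.738) and reached 0.12 without Mixl1 KO replicate 1 (edgeR adjusted p = 0.106). Tbx21 and Tbx4 were too low to be tested with the filter of at least 1 CPM. With no filter on low counts, 3 of the other T-box genes were lower in place of 1, Tbx10 and Tbx15 being added. The same setting called 5 of the lateral plate and cardiac mesoderm genes higher, against 3, and 6 of the cardiac partners, against 4. Leaving out Mixl1 KO replicate 2 or Mixl1 induced replicate 2 took the corepressor genes called lower to 2, against 4, and leaving out Mixl1 KO replicate 3 took the cardiac partners called lower to 1, against 0. Of the brachyury targets, 2 to 4 were called higher as single libraries were left out, against 3. Using the longest transcript in place of all exons moved 14 of 34 levels per length and 9 of 34 shares by more than 1 SD. The replicate numbers did not pair the libraries (correlations of deviations -0.0026, 0.046 and 0.040 for numbers 1 to 3, and not every library correlated best with its own number); with the replicate block, T was at -3.14, Tbx2 at 3.80, and 3 members were higher and 3 lower. Depth limits Tbx5, Tbx10, Tbx19 and Tbx22, with 1 to 13 reads in all libraries together.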
